A study of Danio rerio with 11 samples.

Results

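The mitochondrial respiratory chain genes described here are nuclear genes for subunits of complexes I to V, for their inhibitor and for some of their assembly factors. They were taken by annotated gene symbol: probe sets with 1 symbol beginning with nduf, sdha to sdhd, uqcr, cox4 to cox8 or atp5, and with a log2 signal of at least 6 on at least 1 of the 11 arrays. This gave 84 of the 6466 genes with such a probe set: 33 of complex I, 4 of complex II, 7 of complex III, 14 of complex IV, 16 of complex V, 2 inhibitors of complex V and 8 assembly factors. Of 85 gene symbols on the array, the 1 left out as dim was sdhaf3, whose highest log2 signal was 4.57, and the dimmest gene kept was ndufaf8, with a highest signal of 6.03. The rule used symbols and signal levels and no difference between arrays, although earlier results of these data were known when the genes were chosen. The genes were put in their complex or role by the start of their symbol, so ndufa4a and ndufa4b are counted in complex I. Subunits encoded by mitochondrial DNA carry other symbols and were not analysed here.

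The chain passes electrons from NADH (complex I) and succinate (complex II) through ubiquinone, complex III and cytochrome c to oxygen at complex IV, and the proton gradient this builds drives ATP synthesis by complex V. Each complex is put together from many subunits with the help of assembly factors, and several subunits exist as isoforms made in different tissues or conditions. Heart, skeletal muscle and brain rely heavily on this pathway, and the embryo of the zebrafish (Danio rerio) builds all of them in its first days while it lives on yolk.

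RNA was extracted from whole zebrafish embryos, pooled from the 30 embryos of a cup in 100 ml of medium, and hybridised to Affymetrix zebrafish arrays, which carry a probe set or a few for each gene. Exposed cups had 250 mg of oil emulsion smeared on the cup bottom, collected at a shoreline site after the Deepwater Horizon blowout. Each exposure took 48 h and the embryos were collected at its end, at 48, 72 or 96 h post fertilization (hpf). The Gulfport emulsion was given from 0 to 48, from 24 to 72 and from 48 to 96 hpf (1 array each), and the Fort Morgan and Perdido Key emulsions from 24 to 72 hpf only (1 array each). The 6 unexposed control arrays, from embryos kept in medium without emulsion, comprised 3 of 72 hpf, 2 of 96 hpf and 1 of 48 hpf. Strain, sex and parentage are not given in the labels. The labels do not say whether control arrays of the same age came from separate cups or spawnings, so a p-value here reflects the scatter between arrays, part of which may be technical. RNA of a whole embryo does not show whether a gene's signal is low because cells that express it are few or because each holds less of its RNA. These cannot be told apart here.

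The arrays matched their labels for the oil response: cyp1a, an enzyme induced by aromatic hydrocarbons, lay between 6.33 and 8.76 on the 6 control arrays and between 12.63 and 13.26 on the 5 exposed ones. Marker lists of fast muscle, slow muscle, heart, neurons, liver, erythroid cells, gut and ionocytes had mean log2 signals of 7.26 or more on every array. Array medians over all probe sets lay between 6.37 and 6.42. Values are log2 signals throughout, and a difference of 1 is a 2-fold change. Signals of different probe sets were not set against each other, since probes differ in brightness for reasons other than RNA amount.

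Over the 6 control arrays the respiratory chain genes stood higher at 96 than at 72 hpf. The difference between the 96 and 72 hpf controls was above 0 for 82 of 84 genes (97.6%, against 43.5% of the 9803 tested probe sets), with a median of 0.23 against -0.039 over all tested probe sets. All 33 complex I genes lay above 0 (median 0.25), as did all 4 of complex II (0.24), all 7 of complex III (0.23), all 14 of complex IV (0.21), all 16 of complex V (0.24) and both inhibitors (0.38). The 8 assembly factors had a median of 0.070, with 6 of 8 above 0. For 66 genes both 96 hpf controls lay above all 3 controls of 72 hpf (78.6%, against 18.9% of all tested probe sets), and for 0 genes both lay below (25.4% of all tested). An unadjusted limma p under 0.05 with a higher value at 96 hpf was found for 39.3% of the genes and for 12.3% of all tested probe sets.

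Few of these differences passed the test for a single gene. With limma and Benjamini-Hochberg adjustment over all 9803 probe sets, at a threshold of 0.05, 5 genes rose from 72 to 96 hpf, which is 5.95% of the genes against 6.29% of all tested probe sets, and 0 fell, against 3.31%. The share that passed is near the background. The 84 genes were read from the same 5 arrays, so their common direction is not 84 separate observations.

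**Figure D1:**
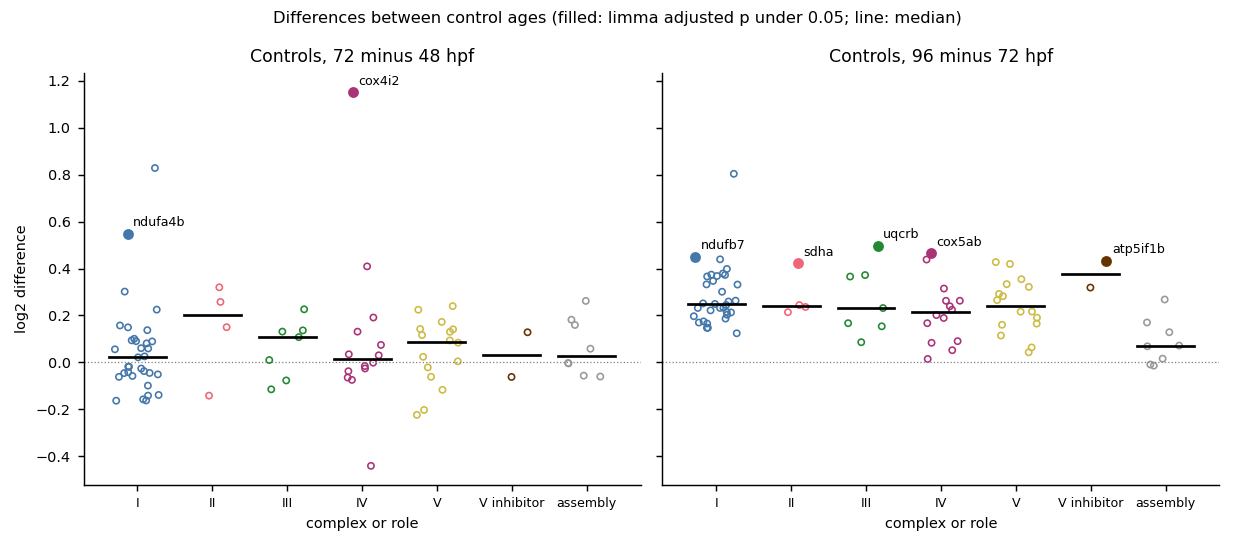
Log2 difference between control ages for each of the 84 genes (points) by complex or role (x axis), with the median of each group as a line; filled points passed limma with an adjusted p under 0.05. Left, 72 minus 48 hpf, where the groups scatter around 0 and cox4i2 stands at 1.15. Right, 96 minus 72 hpf, where 82 of 84 points lie above 0 and the medians of the 5 complexes lie between 0.21 and 0.25.

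The genes that rose came from complexes I, II, III and IV and from the inhibitor. Sdha, the flavoprotein of complex II that oxidises succinate and so joins the chain to the citric acid cycle, read 9.93, 9.98 and 10.002 in the 72 hpf controls and 10.42 and 10.37 in those of 96 hpf. The 2 ages did not overlap, and the difference was 0.42 (SE 0.097, limma adjusted p = 0.033). The other complex II genes, sdhb (iron-sulphur subunit, 0.24), sdhc (0.24) and sdhdb (0.21, both membrane anchors), were higher in the mean but did not pass, with limma adjusted p between 0.215 and 0.372.

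Uqcrb, a small subunit of complex III, read 10.68, 10.92 and 10.99 at 72 hpf and 11.34 and 11.38 at 96 hpf. It had the largest difference among the 5 that rose, 0.50 (SE 0.12, limma adjusted p = 0.0418). Cox5ab, a matrix-side subunit of cytochrome c oxidase (complex IV), read 9.99, 10.04 and 10.14 and then 10.52 and 10.53, a difference of 0.47 (SE 0.10, limma adjusted p = 0.0275). In both genes each 96 hpf control stood above each 72 hpf control.

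Ndufb7, an accessory subunit in the membrane arm of complex I, read 9.21, 9.28 and 9.38 at 72 hpf and 9.80 and 9.69 at 96 hpf, a difference of 0.45 (limma adjusted p = 0.0353). Atp5if1b encodes an inhibitor that keeps ATP synthase from running backwards and consuming ATP. It read 9.14, 9.06 and 9.10 at 72 hpf and 9.55 and 9.52 at 96 hpf, with a difference of 0.43 (limma adjusted p = 0.0295). Its duplicate atp5if1a, needed for heme synthesis in the zebrafish, differed by 0.32 and did not pass. Neither inhibitor gene overlapped between the ages, with atp5if1a at 9.60, 9.44 and 9.87 at 72 hpf and 9.95 and 9.96 at 96 hpf.

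The largest difference of all, in ndufb2 (0.80, limma adjusted p = 0.0761), did not pass, and this accessory subunit of complex I was also the most variable gene among the 72 hpf controls (9.83, 8.96 and 9.35; SD 0.43). Ndufa2 (0.44), cox6c (0.44), atp5md (0.43) and atp5mea (0.42) were close in size to the genes that rose, with limma adjusted p between 0.0505 and 0.105. At the other end cox8a (0.014), the assembly factor ndufaf8 (0.016), ndufaf2 (-0.014) and sdhaf4 (-0.0093) differed least. The calls rested on few arrays. Without 72 hpf control 1 all 5 were lost and ndufb2 alone passed, and without 72 hpf control 2, 96 hpf control 1 or 96 hpf control 2 there were 0. The 7 calls without 72 hpf control 3 held uqcrb, cox5ab and ndufb7 but not sdha or atp5if1b. The median over the 84 genes stayed between 0.20 and 0.28 in these fits. It was 0.22 and 0.24, with 81 and 83 genes above 0, when each array was centred on its median or upper quartile.

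Isoforms of a subunit were compared side by side, although no difference between isoforms was tested. From 72 to 96 hpf cox5ab differed by 0.47 and cox5aa by 0.090, cox6b1 by 0.26 and cox6b2 by 0.17, ndufa4b by 0.33 and ndufa4a by 0.12. Ndufab1a and ndufab1b, copies of the mitochondrial acyl carrier protein that is also a complex I subunit, differed by 0.33 and 0.17, and the subunit e genes atp5mea and atp5meb by 0.42 and 0.27. The genes of the proton-carrying c ring, atp5mc1, atp5mc3a and atp5mc3b, differed by 0.19, 0.043 and 0.32, and the core genes uqcrc2a and uqcrc2b of complex III by 0.17 and 0.15. Of these only cox5ab passed. A dimmer probe set of ndufab1a differed by 0.50 (limma adjusted p = 0.0383).

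The 3 controls at 72 hpf did not give the genes the same level. Control 3 stood above both others for 63 of 84 genes, against 33.5% of all tested probe sets, by a median of 0.14 over the mean of the other controls. Controls 1 and 2 lay 0.087 and 0.065 below in the same measure (medians -0.087 and -0.065). The gap between ages was smaller against control 3 alone: the 96 hpf mean exceeded it for 77 of 84 genes, by a median of 0.14. No share over all tested probe sets was taken for this count. The 2 controls at 96 hpf lay together, each with a median of 0.23 above the 72 hpf mean. The median over the 84 genes had an SD of 0.083 among the 72 hpf controls (n = 3), below the 0.23 between the ages.

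**Figure D2:**
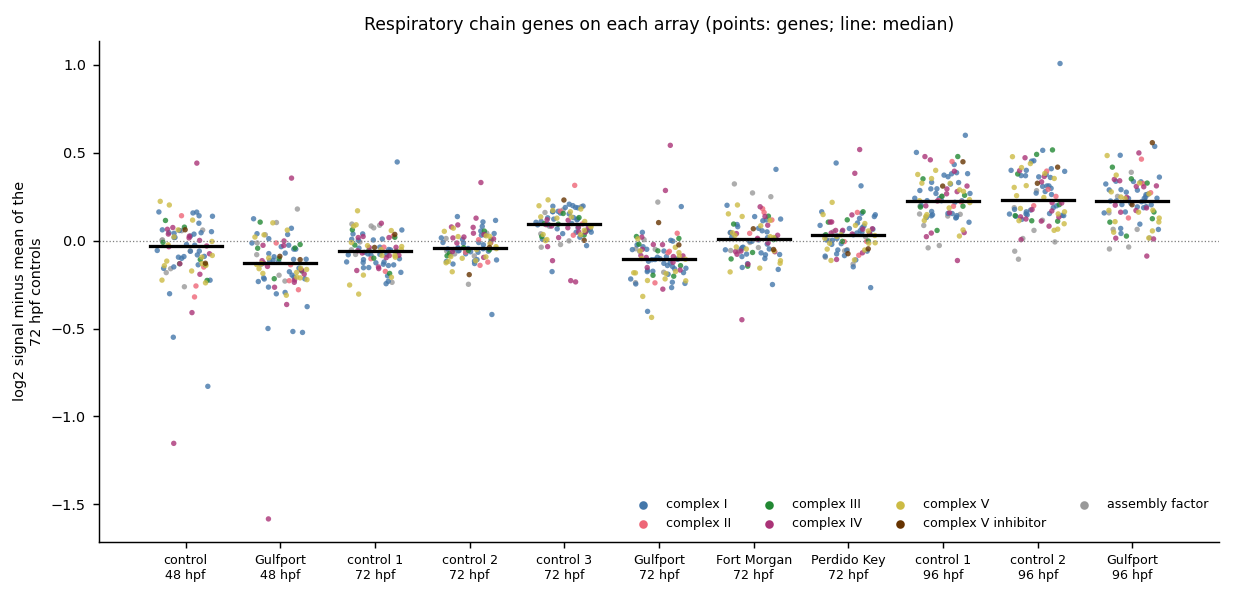
Log2 signal of each of the 84 genes (points, coloured by complex or role) on each of the 11 arrays, minus that gene's mean over the 3 controls at 72 hpf, with the median as a line. The 3 arrays at 96 hpf, Gulfport included, each have a median of 0.23, and the other 8 arrays lie between -0.13 and 0.093.

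From 48 to 72 hpf the set had a median near 0, with a slight lean upward that rests on 1 array of 48 hpf. Of 84 genes 48 lay higher at 72 hpf (46.2% of all tested probe sets did), with a median of 0.032 against -0.029 over all tested. The median was 0.068, 0.053 and 0.0044 without 72 hpf control 1, 2 or 3, and 0.0074 or 0.0615 with arrays centred on the median or upper quartile. With limma, 2 genes rose, against 9.23% of all tested probe sets, and 0 fell, against 8.71%. The single 48 hpf control lay below all 3 of the 72 hpf controls for 40.5% of the genes (31.7% of all tested) and above all 3 for 8.33% (39.3%). It was assumed to vary like the other controls.

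The 2 genes that rose were isoforms. Cox4i2 encodes the alternative form of subunit 4 of cytochrome c oxidase, which in mammals is found mainly in lung and placenta and is induced by low oxygen. It read 6.28 in the 48 hpf control, 7.46, 7.52 and 7.32 in the 72 hpf controls and 7.48 and 7.56 in the 96 hpf controls. The rise from 48 to 72 hpf was 1.15, or 2.22-fold (SE 0.14, limma adjusted p = 0.00143), and from 72 to 96 hpf the difference was 0.083 (SE 0.11, limma adjusted p = 0.671). This was the one respiratory chain gene whose step between 48 and 72 hpf exceeded 1, and it held its call without any single 72 or 96 hpf control.

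Cox4i1l, annotated as like the common form of the same subunit, stood the other way, with 7.39 at 48 hpf and 6.86, 7.28 and 6.72 at 72 hpf. Its difference of -0.44 did not pass, and its 72 hpf controls varied more than those of any gene but ndufb2 (SD 0.29).

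Ndufa4b, named for complex I although its mammalian relative is now placed in complex IV, read 6.62 at 48 hpf and 7.21, 7.31 and 6.996 at 72 hpf. It rose by 0.55 (SE 0.15, limma adjusted p = 0.0438) and read 7.47 and 7.54 at 96 hpf. Its call was lost without 72 hpf control 1 or 2, without either 96 hpf control, or with arrays centred on their medians. Its duplicate ndufa4a differed by -0.051 from 48 to 72 hpf.

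Other differences from 48 to 72 hpf did not pass. Beside cox4i1l they were largest in ndufb2 (0.83, limma adjusted p = 0.102), which passed without 72 hpf control 2 (1.04, adjusted p = 0.0414), in cox6b1 (0.41) and sdha (0.32), and on the lower side in atp5md (-0.22), atp5mj (-0.20) and ndufb7 (-0.16). Within complex II sdhb differed by 0.26, sdhc by 0.15 and sdhdb by -0.14. The assembly factors lay between -0.061 and 0.26, highest in sdhaf2, which attaches flavin to sdha. Over both steps, 82 of 84 genes were higher in the mean of the 96 hpf controls than in the single 48 hpf control. The median difference was 0.28. No share over all tested probe sets was taken for this count.

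**Figure D3:**
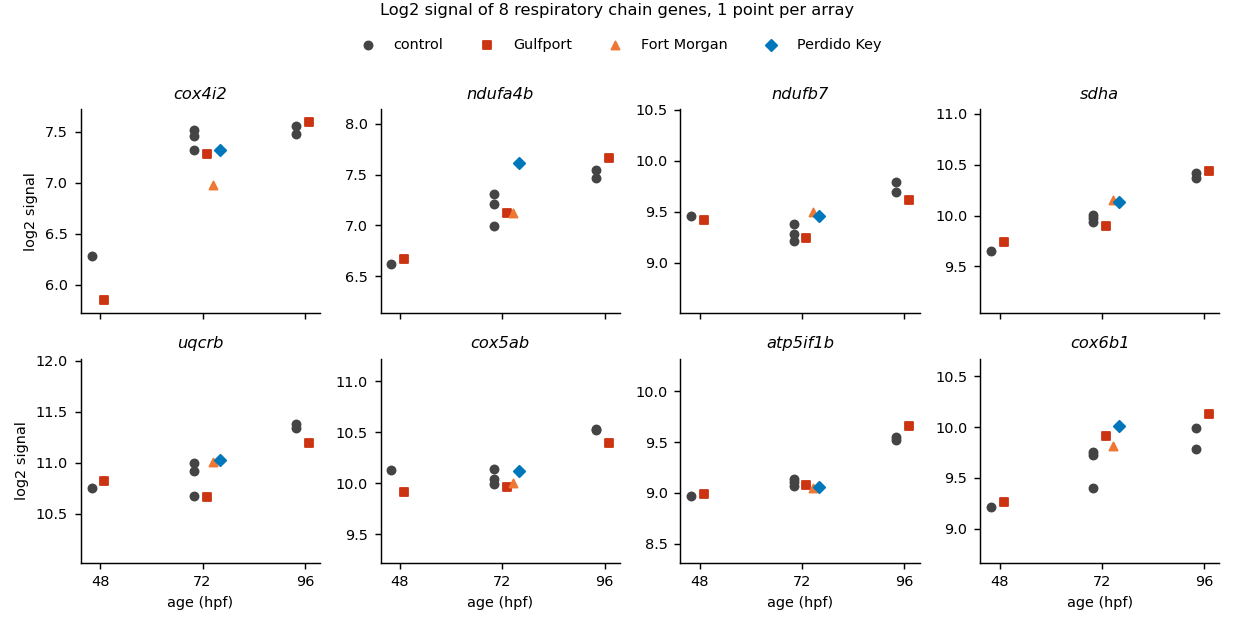
Log2 signal of 8 respiratory chain genes on each of the 11 arrays against age in hpf (each point is 1 array; grey, control; red, Gulfport; orange, Fort Morgan; blue, Perdido Key; every panel spans 2 log2 units). Cox4i2 goes from 6.28 to between 7.32 and 7.52 in controls from 48 to 72 hpf, while uqcrb, cox5ab, ndufb7 and atp5if1b rose from 72 to 96 hpf, as did sdha, which also differed by 0.32 from 48 to 72 hpf.

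Exposure to the emulsions was compared first at 72 hpf, where the 3 exposed arrays, 1 per site, were pooled as a group against the 3 controls. The difference passed limma for 0 of 84 genes, against 0.571% of all tested probe sets, and the lowest adjusted p was 0.551. At an unadjusted limma p under 0.05 there were 2 genes, which is 2.38% against 8.75% of all tested probe sets. The median difference was -0.015 against -0.0165 over all tested, and 32 of 84 genes lay above 0 (44.6% of all tested). Single arrays turned this balance: 49 genes lay above 0 (median 0.017) without 72 hpf control 3 and 50 (median 0.018) without the Gulfport array. Without any other single array of the 6 the median lay between -0.0567 and -0.0382, with 21 to 25 genes above 0. By complex the medians were -0.040 (I), 0.029 (II), -0.0021 (III), -0.013 (IV) and -0.020 (V). Exposed and control arrays were separate for 1 gene with exposed higher (6.92% of all tested were) and for 0 with exposed lower (6.58%).

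The intervals bound what this pooled comparison could miss. The 95% confidence interval of the difference lay within 0.5 of 0 on the log2 scale for 80 of 84 genes and within 1 for all 84, with a median half-width of 0.23. The lowest bound was -0.51 in cox4i2 and the highest 0.79 in cox4i1l. For single exposed arrays against controls of their age the intervals were wider. They lay within 0.5 of 0 for 50 genes (Gulfport, 72 hpf), 67 (Fort Morgan), 73 (Perdido Key) and 66 (Gulfport, 96 hpf). Their median half-widths were 0.33 at 72 hpf and 0.35 at 96 hpf. The smallest common difference over the genes that these arrays could show was not worked out. One within the spread of the controls could not be told from that spread.

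**Figure D4:**
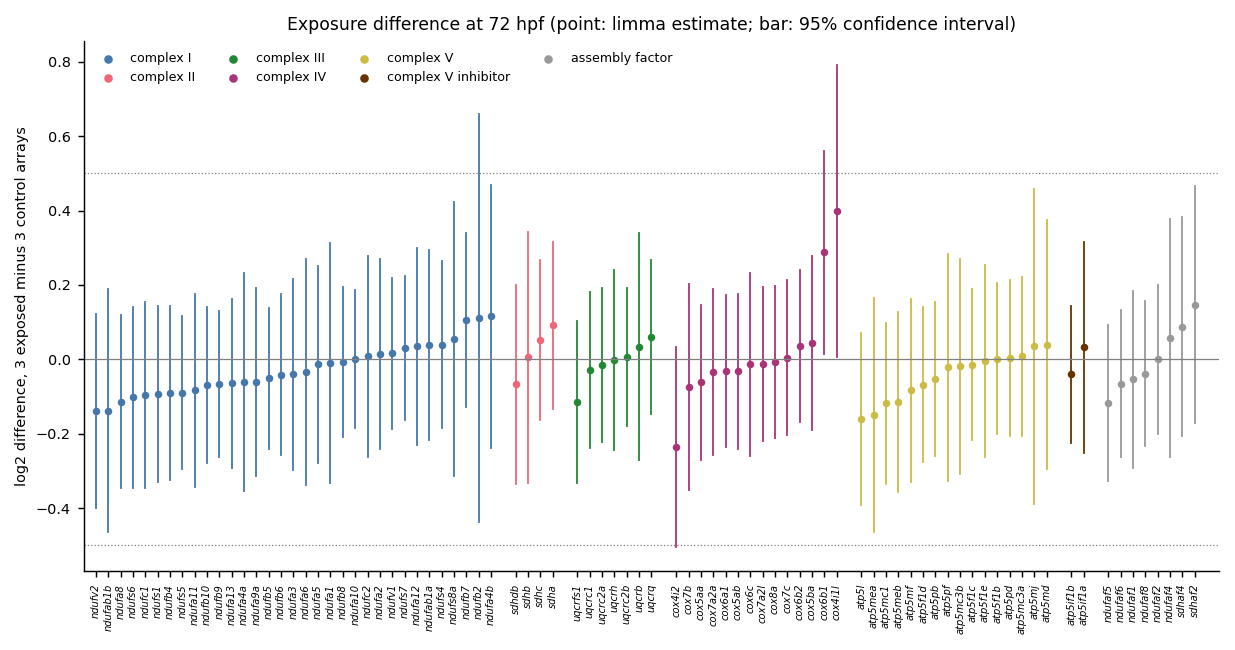
Log2 difference between the 3 exposed and the 3 control arrays at 72 hpf for each of the 84 genes (points, limma estimate; bars, 95% confidence interval), grouped by complex or role and ordered within each group; dotted lines mark a difference of 0.5 either way. Intervals of 80 genes stay between the dotted lines, and the 2 that leave 0 out are cox6b1 and cox4i1l.

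The gene without overlap was cox6b1, a subunit of cytochrome c oxidase on the outer face of the inner membrane. Its controls read 9.72, 9.75 and 9.40, and the exposed arrays 9.91 (Gulfport), 9.82 (Fort Morgan) and 10.01 (Perdido Key). Each exposed array stood above each control, and the difference was 0.29 (95% interval 0.014 to 0.56, limma adjusted p = 0.551), so it did not pass. In the Gulfport pair at 48 hpf the control read 9.22 and the exposed array 9.26, and at 96 hpf the controls read 9.78 and 9.99 and the exposed array 10.12. Its counterpart cox6b2 differed by 0.035 at 72 hpf.

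The subunit 4 isoforms of complex IV lay apart in sign. Cox4i1l read 7.50, 7.09 and 7.47 in the Gulfport, Fort Morgan and Perdido Key arrays, against 6.86, 7.28 and 6.72 in the controls, a difference of 0.40 (limma adjusted p = 0.558). Cox4i2 read 7.28, 6.98 and 7.32 in the exposed arrays, against 7.46, 7.52 and 7.32 in the controls, a difference of -0.24 (limma adjusted p = 0.613). In both genes exposed and control arrays overlapped. Neither difference passed, and the difference between the isoforms was not tested.

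The next lowest were atp5l (-0.16) and atp5mea (-0.15), which encode small membrane subunits of ATP synthase, and ndufv2 (-0.14), an iron-sulphur subunit of complex I. The next highest were the assembly factor sdhaf2 (0.15) and ndufa4b (0.12), and ndufa4b went to -0.048 without the Perdido Key array. The complex II genes differed by 0.092 (sdha), 0.0058 (sdhb), 0.052 (sdhc) and -0.068 (sdhdb), and the 8 assembly factors by -0.12 to 0.15. A dimmer probe set of the assembly factor ndufaf1 differed by -0.27 (limma adjusted p = 0.525), against -0.054 for the one used. The 5 genes that rose with age in the controls from 72 to 96 hpf differed by 0.092 (sdha), 0.034 (uqcrb), -0.032 (cox5ab), 0.11 (ndufb7) and -0.040 (atp5if1b).

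With all 11 arrays in a fit with age as a factor, exposure again passed for 0 genes, against 1.31% of all tested probe sets. The lowest limma adjusted p was 0.319, in cox6b1 (0.23). Here 22 of 84 genes lay above 0 (44.0% of all tested did) and the median was -0.039 against -0.0145 over all tested. That median was -0.0625 without 72 hpf control 1, -0.015 without control 3 and -0.012 without the Gulfport array of 72 hpf. With Gulfport and control arrays only it was -0.079, with 14 genes above 0. After cox6b1 the highest were cox4i1l (0.23), sdhaf2 (0.13) and ndufa4b (0.11), and the lowest cox4i2 (-0.19), atp5l (-0.13), ndufab1b (-0.13) and the complex I subunit ndufs5 (-0.13). The confidence interval lay within 0.5 of 0 for 83 genes, all but cox4i1l.

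Each exposed array was also set against the controls of its age. The Gulfport array at 72 hpf had the genes lower on balance, but none passed: 0 of 84, against 2.71% of all tested probe sets. Its difference was above 0 for 13 of 84 genes (45.7% of all tested) with a median of -0.10 against -0.0225. For 43 genes it read below all 3 controls (51.2%, against 33.6% of all tested) and for 3 above all 3 (26.8%). Unexposed control 1 of 72 hpf read below both other controls for 47 genes (56.0%, against 35.5% of all tested). Its median difference from the mean of those controls was -0.087. Control 1 was set against 2 arrays and the Gulfport array against 3, so the counts are not like for like. By complex the medians of the Gulfport array against the 3 controls were -0.13 (I), -0.064 (II), -0.058 (III), -0.086 (IV) and -0.18 (V). The median over the 84 genes was -0.057 without 72 hpf control 3, the control in which most of the genes stood highest, with 21 genes above 0. It was -0.13 without control 1, and 7 genes lay above 0 without control 2.

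Atp5mea, subunit e of ATP synthase, was the gene furthest below in the Gulfport array at 72 hpf. It read 8.95 there, 9.34 and 9.42 in the Fort Morgan and Perdido Key arrays, and 9.36, 9.29 and 9.52 in the controls. The Gulfport array was thus the lowest of the 6, with a difference from the controls of -0.44 (SE 0.14, limma adjusted p = 0.154). The acyl carrier gene ndufab1b followed (-0.40, adjusted p = 0.245), then atp5mj (-0.32) and cox7b (-0.28), while cox4i1l (0.54), cox6b1 (0.29), sdhaf2 (0.22) and ndufb2 (0.19) were highest. Ndufb2 went to -0.016 without 72 hpf control 2. In the same array 0 of 7 neuron markers passed, with a median difference of -0.45. Of 6 liver markers 2 fell (fabp10a by 0.97 and tfa by 0.77), while 3 of the 6 lay above 0. Of 5 gut markers 1 rose. Among all tested probe sets 1.74% rose and 0.969% fell in this array. The liver list had a median difference of -0.31 there. Neuron and liver lists had medians of -0.27 and 0.011 in the Fort Morgan array, and of 0.010 and -0.37 in the Perdido Key array. The part of these lists in the levels of the respiratory chain genes was not tested.

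The other emulsions at 72 hpf gave medians near 0. For Fort Morgan 0 of 84 genes passed limma (0.224% of all tested probe sets), the median was 0.0070 and 44 genes lay above 0 (47.0% of all tested). The median was -0.012, -0.015 and 0.044 without 72 hpf control 1, 2 or 3. The lowest were cox4i2 (-0.45, limma adjusted p = 0.514) and ndufv2 (-0.25), and the highest ndufb2 (0.41) and the assembly factor sdhaf4 (0.32). For Perdido Key 0 passed (0.224% of all tested), the median was 0.034 and 53 genes lay above 0 (47.9% of all tested). That median was 0.0049 (44 genes above 0) without 72 hpf control 1, 0.013 (45) without control 2 and 0.083 (67) without control 3. The highest were cox4i1l (0.52), ndufa4b (0.44, limma adjusted p = 0.874), cox6b1 (0.38) and ndufs8a (0.31), and the lowest was ndufb2 (-0.27).

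Whether the Gulfport array differed from the other sites was tested in the same fit. The difference between the Gulfport array and the mean of the other exposed arrays at 72 hpf passed for 0 genes (0.0306% of all tested probe sets), with a median of -0.10 against -0.0115 over all tested and 15 of 84 genes above 0 (47.4% of all tested), or 8 with arrays centred on their medians. At an unadjusted limma p under 0.05 there were 4 genes, 4.76% against 9.44% of all tested, all lower in the Gulfport array. They were atp5mj (-0.53), ndufs8a (-0.48), atp5mea (-0.43) and ndufab1b (-0.40), with limma adjusted p between 0.415 and 0.527. Each site is 1 array, so site and cup cannot be told apart.

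At 96 hpf the Gulfport array read close to its 2 controls. It passed for 0 of 84 genes (0.0918% of all tested probe sets), its median was -0.034 against -0.020 over all tested, and 26 genes lay above 0 (45.0% of all tested). Its median of 0.23 above the 72 hpf controls equalled that of each 96 hpf control to 2 decimals. The largest differences were ndufaf2 (0.27), cox6b1 (0.24), ndufb2 (-0.27) and ndufs5 (-0.21), each with a limma adjusted p of 1.0. Sdha read 10.43 against 10.42 and 10.37, and atp5if1b 9.66 against 9.55 and 9.52. Cox5ab read 10.40 against 10.52 and 10.53, uqcrb 11.19 against 11.34 and 11.38, and ndufb7 9.62 against 9.80 and 9.69.

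The difference between the Gulfport exposures ending at 96 and at 72 hpf was tested directly, as the difference at 96 minus that at 72 hpf. It passed limma for 0 of 84 genes and for 0 of all tested probe sets (0.0%). At an unadjusted limma p under 0.05 there were 0 of the 84 genes, against 9.72% of all tested. The median of the genes was 0.078, with 64 of 84 above 0 (49.9% of all tested), and it was 0.029 with 51 above 0 without 72 hpf control 3. The highest were atp5mj (0.41) and ndufc1 (0.30), and the lowest cox4i1l (-0.47) and ndufb2 (-0.46).

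The 48 hpf pair, with 1 array on each side, is described without a test. The Gulfport array was lower by at least 0.5 for 1 gene (1.51% of all tested probe sets) and higher by as much for 0 (1.81%). That gene was ndufab1a, at 9.32 in the control and 8.80 in the exposed array. Its copy ndufab1b read 10.15 and 10.05. Cox4i2 (6.28 and 5.85), ndufs8a (9.24 and 8.86) and ndufs4 (9.80 and 9.54) were the next lowest in the exposed array, and ndufb2 (8.55 and 8.86) and ndufaf2 (6.72 and 6.92) the highest. The difference was above 0 for 20 of 84 genes (52.3% of all tested), with a median of -0.084 against 0.010 over all tested. Over the same genes, control 3 of 72 hpf differed from the other controls of its age by a median of 0.14.

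Genes that feed or surround the chain gave the following counts with limma in the controls from 72 to 96 hpf, beside the 5 of 84 above and the 6.29% of all tested probe sets that rose, the 3.31% that fell and the 43.5% above 0. Of 23 genes of the citric acid cycle and pyruvate dehydrogenase, 4 rose and 0 fell, with 21 above 0 and a median of 0.17. They were suclg2 (0.88) and ogdhb (0.44), enzymes of the cycle, and pdk2b (2.49) and pdk4 (0.61), kinases that shut off pyruvate dehydrogenase. Of 15 carriers and channels, 3 rose and 0 fell, with 12 above 0 and a median of 0.29. Those that rose were the uncoupling protein genes ucp1 (1.86), ucp2 (0.70) and ucp3 (1.23). Of 18 beta oxidation genes, 2 rose and 0 fell (cpt2, 0.49, and acadm, 0.49), with 16 above 0 and a median of 0.30.

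Of 56 mitochondrial ribosomal protein genes, 0 rose and 0 fell, with 46 above 0 and a median of 0.12. Of 17 protein import genes, 0 rose and 0 fell, with 10 above 0 and a median of 0.041. Of 10 genes of cytochrome c and ubiquinone, coq10b rose by 0.52 and coq10a fell by 0.53, which are paralogs for a ubiquinone-binding protein. In that list 7 lay above 0, with a median of 0.085. Of 18 further assembly factors 1 rose (tmem126a, 0.38) and 0 fell, with 16 above 0 and a median of 0.11. Of 11 regulators of mitochondrial gene expression 0 rose and 0 fell, with 3 above 0 and a median of -0.14. Of 26 glycolysis genes 6 rose and 0 fell, with 22 above 0 and a median of 0.15.

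From 48 to 72 hpf, where the respiratory chain genes had a median of 0.032, 13 of the 26 glycolysis genes rose and 0 fell, with a median of 0.44, where 9.23% of all tested probe sets rose and 8.71% fell. They included ldhbb (2.69), eno1b (1.83) and pkma (1.33). Of the 15 carriers 4 rose and 1 fell: ckmt2a, a mitochondrial creatine kinase of muscle, rose by 2.69, slc25a3a, a phosphate carrier for ATP synthesis, by 2.27, ucp1 by 1.29 and ucp3 by 1.41, and slc25a20, the acylcarnitine carrier, fell by 0.45. The regulators nrf1 and gabpa, factors that in mammals switch on respiratory chain genes, fell by 0.54 and 0.64. In the single Gulfport array at 72 hpf ckmt2a and slc25a3a read 1.40 and 1.07 lower than the controls, and ucp3 read 1.38 higher. In the pooled exposure comparison at 72 hpf 0 of the 15 carriers rose and 0 fell, where 0.571% of all tested probe sets passed. In the fit with age as a factor 1 of the carriers rose and 0 fell, where 1.31% of all tested passed.

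Markers of cell types also moved between the control ages. From 72 to 96 hpf, of 5 gut markers 3 rose and 0 fell (mean log2 signal of the list 9.79 to 10.04 at 72 hpf and 10.72 to 10.84 at 96 hpf), and of 4 erythroid markers 0 rose and 3 fell (9.92 to 10.19 and 9.07 to 9.20). Of 12 fast muscle markers 0 rose and 1 fell (13.44 to 13.49 and 13.27 to 13.37). Of 4 heart markers 1 rose and 0 fell (7.41 to 7.63 and 7.71 to 7.80), of 6 liver markers 1 rose and 0 fell (10.14 to 10.43 and 10.58 to 10.75), and of 7 neuron markers 1 rose and 1 fell (10.19 to 10.35 and 10.18 to 10.25). Of 2 slow muscle and 2 ionocyte markers 0 rose and 0 fell. From 48 to 72 hpf, of 7 neuron markers 3 rose and 1 fell, of 6 liver markers 1 rose and 0 fell, of 4 erythroid markers 0 rose and 2 fell, and of 5 gut markers 1 rose and 2 fell. The part of these lists in the levels of the respiratory chain genes was not tested.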

How the data were processed

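The deposited table holds log2 probe set signals that the authors made with RMA (robust multi-array average: background correction, quantile normalization and a summary over probes), per the submitters' processing notes. The software and its version are not given in the sources used here. Quantile normalization gives every array nearly the same distribution, so a change in total RNA per embryo would not show, and RMA shrinks differences of dim probe sets. No detection call was made, and the number of arrays limits the precision.

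After 115 AFFX controls of 15617 probe sets were removed, 9803 passed the signal minimum and were tested. Symbols came from the platform annotation. All 84 genes were found by Entrez identifier in a RefSeq gene table of assembly GRCz12tu, with 0 symbols changed, and 2 probe sets with several symbols were not used. The probe set of highest mean stood for its gene. Ndufab1a, ndufaf1 and ndufv2 had more than 1 passing probe set, with no opposite signs between control ages or in the pooled exposure comparisons. Probe sets of ndufab1a and atp5mf are of a type that may detect several transcripts.

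The tests used limma 3.58.1 under R 4.3.3, adjusted by Benjamini-Hochberg over all tested probe sets. Control ages were contrasts over the 6 control arrays. Single exposed arrays, the site difference and the comparison of exposure windows were contrasts in a fit to the 11 arrays with a mean for each group, so that a single array borrows its variance from the replicated controls. The procedure was tested on simulated data with changes larger than most differences reported here, so that run does not bear on small ones. Alternatives were other filters, scalings, variance moderation, array weights, probe sets and adjustment sets. Further ones were a replicate block, fits to other sets of arrays (such as Gulfport and control arrays only) and leaving out each array. Figures were drawn with Python 3.11.15, pandas 2.3.3, numpy 2.4.6 and matplotlib 3.10.9.

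Named genes are, in each comparison, up to 6 of largest difference in each direction among those that passed, filled up to 4 with genes that did not pass, the 4 of largest difference in each direction at 48 hpf, isoforms and duplicates of a subunit, complex II genes and assembly factors. Ndufa2, cox6c, atp5md, atp5mea and cox8a at 96 hpf were added after their values were seen. The genes and lists were chosen with earlier results of these data known.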

Additional observations from a re-analysis of the deposited data

How the results depend on the processing

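Genes passing limma higher in the controls at 96 than at 72 hpf numbered 5; they numbered 8 with a minimum of 8 on the log2 scale, 9 with trend and robust moderation, and 0 to 7 when an array was left out. From 48 to 72 hpf they numbered 2; they numbered 0 with the minimum of 8, which removes cox4i2 and ndufa4b from the test, 1 with arrays centred on the median, and 1 to 2 when an array was left out. At 48 hpf 0 genes were lower by at least 1 in place of 1 by at least 0.5. In each exposed comparison 0 genes passed under every alternative run. Medians over the genes moved by less than 0.083, the SD of that median among the 72 hpf controls. That SD exceeds most medians of the exposed comparisons, so it does not show that these were stable. With an array left out the pooled exposure median at 72 hpf lay between -0.0567 and 0.018, a change of sign. The median of the difference between Gulfport exposures lay between 0.029 and 0.11. A comparison resting on a single exposed array could not be run without that array. The site comparison could lose none of its own arrays, so leaving out others could not move its median.

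Controls at 72 and 96 hpf share replicate numbers 1 and 2, but nothing in the labels pairs them, and the deviations of same-numbered arrays from their age means correlated at -0.050 and -0.065. With the number as a replicate block 1 gene passed from 72 to 96 hpf, uqcrb, and the median was 0.28; ndufaf2 went to 0.027 and sdhaf4 to 0.071.

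Values near 0 changed sign elsewhere too: from 72 to 96 hpf ndufaf2 lay between -0.052 and 0.027 (0.013 without 96 hpf control 1) and sdhaf4 between -0.11 and 0.087 when an array was left out, and sdhaf4 was 0.0025 with upper quartile centring and 0.0011 with array weights. Exposed against control at 72 hpf ndufa4b went to -0.048 without Perdido Key (range up to 0.20), and in the Gulfport array ndufb2 to -0.016 without 72 hpf control 2 (range up to 0.42).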
